A study of Mus musculus with 2 samples.

Results

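Rab GTPases are small switch proteins that give membranes of the cell their identity. In the GTP-bound state a Rab sits on a vesicle or organelle and recruits effectors such as tethers, motors and adaptors, and in the GDP-bound state it is drawn off the membrane. Macrophages depend on this traffic for phagocytosis, for the ripening of phagosomes into lysosomes and for the release of cytokines. The family was taken as the protein-coding genes of the GENCODE M21 annotation whose symbol is Rab followed by a number and at most 1 letter, which gave 59 of 21938 protein-coding genes.

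The data are H3K27ac peaks, regions of chromatin acetylated at lysine 27 of histone H3, a mark of active promoters and enhancers. They were obtained by chromatin immunoprecipitation and sequencing from primary macrophages of the mouse strain C57BL/6J, grown from bone marrow and given no stimulation. A single group of 2 biological replicates was profiled, each from 10 ng of DNA. Both replicates carry the same donor entry, and age, sex and stage are unknown or were not collected, per the labels. The spread between replicates may therefore leave out differences between animals, and a bulk peak cannot tell fewer acetylated cells from less acetylation per cell.

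The replicate lists held 29543 and 29345 peaks, with median widths of 898 and 962 bp, and the list that the authors made from both libraries held 32877. The sources used here give no read depth, so a promoter with no peak fell short of the authors' threshold and may still carry the mark. The 8 macrophage markers examined (Spi1, Csf1r, Cd68, Adgre1, Itgam, Lyz2, Mertk and Fcgr1) all had a promoter peak in both replicates. None of 25 markers of neutrophils, T cells, B cells, mast cells, erythroid cells, fibroblasts, epithelium and endothelium did so. A gene counts as marked here if both replicate lists have a peak within 1 kb of at least 1 of its annotated starts. The fold of a peak is the authors' own value, read here as linear and over control or background. It orders peaks within 1 list alone. Folds, widths and distances given in pairs are those of replicate 1 and then replicate 2.

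Of the 59 Rab genes, 37 were marked (62.7%), against 8633 of all 21938 protein-coding genes (39.4%). Replicate 1 gave a promoter peak at 37 Rab genes and replicate 2 at 38, where the shares over all protein-coding genes were 40.5% and 41.6%. The replicates differed at Rab27a alone, which encodes the Rab of secretory granules. Its peak was found in replicate 2 with a fold of 2.11, and it ranked 29344 of 29345 in that list. The remaining 21 Rab genes had no promoter peak in either replicate, and the share over all protein-coding genes was 57.3%. With a single group and 2 libraries no test of these shares was made.

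The share of marked genes varied among transport steps. A member was placed at 1 step by its best known function, although several act at more than 1. All 7 Rab genes of early endosomes and uptake and all 5 of constitutive exocytosis were marked, as were 9 of 12 of the endoplasmic reticulum (ER) and Golgi. The late endosome, lysosome and autophagy group had 6 of 10 marked and the recycling endosome group 5 of 9. Regulated secretion and lysosome-related organelles had 3 of 11. The cilium and SOCS box groups had 1 of 2 each, and Rab42, which was left unclassified, was unmarked. Beside these counts stand 62.7% of all Rab genes and 39.4% of all protein-coding genes. These steps hold few genes, so 1 gene moves a share by many points. Their lists were chosen with earlier results of these data known.

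**Figure D1:**
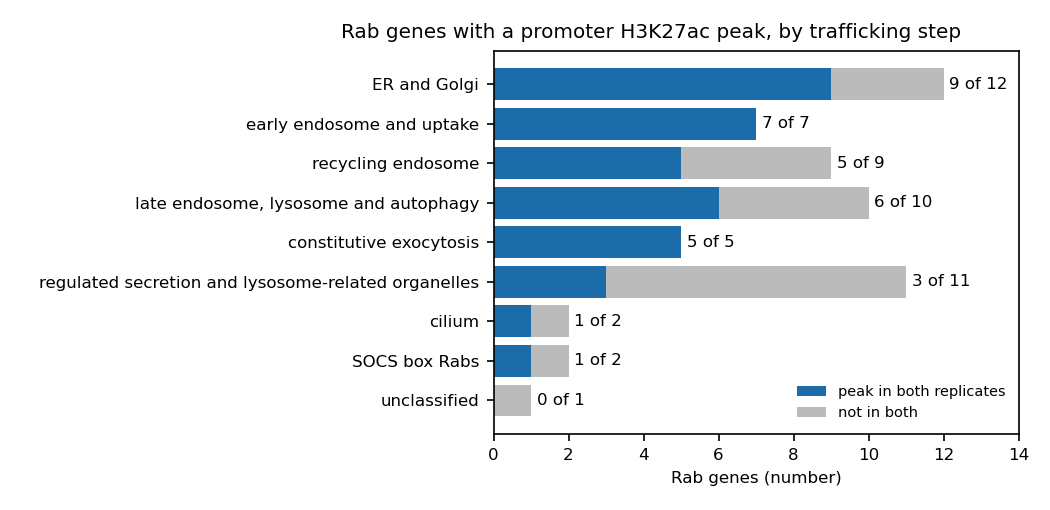
Number of Rab genes (horizontal axis) with a promoter H3K27ac peak in both replicates (blue) and without one in both (grey), for each transport step. Early endosome and constitutive exocytosis genes were all marked, whereas 3 of 11 genes of regulated secretion were, beside 62.7% of all Rab genes.

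Close relatives differed in some sets and not in others. Here 16 sets of paralogues were compared, the copies that arose from a shared ancestor and that in part have the same partners. The sets are a chosen list that leaves many members out, among them Rab25, Rab26 and Rab37, so the counts depend on it. In 7 sets every listed copy was marked (Rab1, Rab2, Rab5, Rab7, Rab8, Rab11 and the pair Rab22a and Rab31), and in 2 sets none was (Rab27 and Rab39). The other 7 sets had a marked and an unmarked copy: Rab3, Rab4, Rab6, Rab9, Rab33, Rab40 and the pair Rab32 and Rab38. With 62.7% of all Rab genes marked, Rab genes paired without regard to kinship would also often differ. These counts therefore show no trait of paralogues.

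Rab40c and Rab40b carry a SOCS box, a module that recruits a ubiquitin ligase. Rab40c, at chr17:25882114-25919727 on the minus strand, had one of the highest promoter folds of the family, 37.3 and 35.9, in peaks of 4951 and 3349 bp. That peak did not lie at the 5′ end: its summits were 6079 and 6052 bp downstream, in an intron and 16 and 43 bp from an internal annotated start. The peaks nearest the 5′ end of Rab40c had folds of 8.09 and 4.57. Rab40b had no promoter peak, and the nearest peaks to its 5′ end lay 33138 and 33152 bp away.

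Rab3 proteins act in the release of secretory and synaptic vesicles. Rab3a was marked with folds of 7.40 and 10.2, in upstream peaks of 2411 and 2262 bp that stopped 112 and 144 bp short of the 5′ end and had summits in intergenic sequence 1556 and 1540 bp upstream. Rab3b, Rab3c and Rab3d had no promoter peak. The nearest peaks lay 30329 and 35907 bp from the 5′ end of Rab3b, 75379 and 75396 bp from that of Rab3c, and 5057 and 5475 bp from that of Rab3d. Rab9, which takes part in transport from late endosomes to the trans-Golgi network, was marked with folds of 6.71 and 8.38. Its copy Rab9b, also on the X chromosome, was unmarked, and its nearest peaks lay 125874 and 125846 bp away.

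The promoters of these sets are shown so that marked and unmarked copies of 1 kind of Rab can be set side by side. They are the stretches before the start and not the peaks, and the highest Rab40c peak lies elsewhere in the gene. The 250 bases before the RefSeq start are given 5′ to 3′ on the gene's strand for GRCm38.p6, the build of mm10. Capitals mark the NF-Y word CCAAT, the interferon response word GAAANNGAA and the TATA box, in either orientation, so that the NF-Y word may stand in its reverse complement. The RefSeq start of Rab3c lies inside the GENCODE gene and not at its 5′ end.
Rab40c (chr17:25919715-25919964, minus strand): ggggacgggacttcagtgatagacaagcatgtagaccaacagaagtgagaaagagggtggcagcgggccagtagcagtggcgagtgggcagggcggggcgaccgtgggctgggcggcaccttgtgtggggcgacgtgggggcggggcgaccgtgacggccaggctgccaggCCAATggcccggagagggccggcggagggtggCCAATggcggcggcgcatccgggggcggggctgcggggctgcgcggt
Rab40b (chr11:121388252-121388501, minus strand): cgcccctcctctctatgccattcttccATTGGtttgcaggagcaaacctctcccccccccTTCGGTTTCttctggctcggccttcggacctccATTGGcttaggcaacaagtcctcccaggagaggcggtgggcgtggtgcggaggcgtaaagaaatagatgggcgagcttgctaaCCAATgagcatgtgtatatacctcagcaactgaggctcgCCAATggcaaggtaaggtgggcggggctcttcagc
Rab3a (chr8:70754453-70754702, plus strand): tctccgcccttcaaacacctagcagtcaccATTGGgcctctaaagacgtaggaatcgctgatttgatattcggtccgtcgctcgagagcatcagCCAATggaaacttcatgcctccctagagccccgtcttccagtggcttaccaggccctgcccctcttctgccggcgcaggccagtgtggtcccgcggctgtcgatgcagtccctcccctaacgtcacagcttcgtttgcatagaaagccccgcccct
Rab3b (chr4:108878820-108879069, plus strand): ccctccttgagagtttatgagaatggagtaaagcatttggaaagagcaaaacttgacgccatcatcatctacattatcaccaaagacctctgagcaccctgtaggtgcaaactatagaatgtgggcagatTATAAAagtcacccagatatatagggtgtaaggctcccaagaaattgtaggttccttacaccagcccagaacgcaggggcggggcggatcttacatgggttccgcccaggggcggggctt
Rab3c (chr13:110280207-110280456, minus strand): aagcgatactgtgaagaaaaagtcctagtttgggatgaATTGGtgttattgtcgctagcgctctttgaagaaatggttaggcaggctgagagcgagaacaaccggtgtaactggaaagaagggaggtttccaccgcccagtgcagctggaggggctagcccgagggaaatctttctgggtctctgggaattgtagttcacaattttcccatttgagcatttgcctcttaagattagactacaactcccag
Rab3d (chr9:21918184-21918433, minus strand): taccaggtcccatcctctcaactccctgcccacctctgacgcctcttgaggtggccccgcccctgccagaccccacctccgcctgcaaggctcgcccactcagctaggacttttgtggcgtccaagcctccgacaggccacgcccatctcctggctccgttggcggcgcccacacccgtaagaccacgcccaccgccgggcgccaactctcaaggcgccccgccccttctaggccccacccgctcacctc
Rab9 (chrX:166479868-166480117, minus strand): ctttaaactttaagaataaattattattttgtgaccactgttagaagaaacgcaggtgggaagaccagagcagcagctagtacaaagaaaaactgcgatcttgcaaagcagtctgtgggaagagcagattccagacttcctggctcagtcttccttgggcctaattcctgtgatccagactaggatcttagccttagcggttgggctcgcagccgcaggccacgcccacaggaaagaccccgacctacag
Rab9b (chrX:136868557-136868806, minus strand): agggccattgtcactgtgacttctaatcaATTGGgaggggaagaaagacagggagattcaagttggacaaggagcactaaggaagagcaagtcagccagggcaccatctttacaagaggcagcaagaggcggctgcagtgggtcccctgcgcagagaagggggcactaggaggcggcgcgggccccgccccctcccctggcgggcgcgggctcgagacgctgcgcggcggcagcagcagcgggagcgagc
The stretch of the marked Rab40c held 24 CG pairs at 72.4% GC, against 11 at 57.6% in the unmarked Rab40b. The marked Rab3a had 16 CG pairs, against 6 in Rab3b, 7 in Rab3c and 18 in Rab3d. The order was the other way round in the Rab9 set, with 7 in the marked Rab9 and 16 in the unmarked Rab9b. CG pairs in this stretch thus did not follow marking across the 3 sets.

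In the other sets with differing copies, the distance from the unmarked copy to the nearest peak varied widely. Rab32, which serves melanosomes and other lysosome-related organelles and takes part in macrophage defence against intracellular bacteria, was marked with folds of 26 and 27 and widths of 2718 and 2861 bp. The nearest peaks to its copy Rab38, also a Rab of melanosomes, lay 110277 and 110282 bp away. Rab6a, of retrograde Golgi transport, was marked with folds of 4.30 and 4.86, and its neuronal copy Rab6b had its nearest peaks 118178 and 117895 bp away. A start of Mrpl48 lies inside the replicate 2 peak of Rab6a, though not inside its replicate 1 peak. Rab4b, of rapid recycling, had a fold of 6.54 in both replicates, and its copy Rab4a had its nearest peaks 16504 and 16456 bp away. Rab33b, a Golgi Rab that also binds the autophagy machinery, was marked with folds of 4.99 and 7.37. Its copy Rab33a was the exception, with intronic peaks of 4.82 and 5.36 that began 2026 and 1983 bp from the 5′ end and so lay outside the window.

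Among the sets with every listed copy marked, the order of the copies by fold was the same in both replicate lists. Rab5 proteins drive fusion of early endosomes, and their promoter folds were 34.9 and 34.4 for Rab5c, 21.3 and 18.8 for Rab5a, and 10.5 and 10.4 for Rab5b. Rab7b, which acts between late endosomes and the trans-Golgi network, had 36.5 and 41.4, against 13.8 and 12.7 for Rab7, the Rab of fusion with lysosomes. The Rab7b peaks covered its 5′ end, but their summits lay 2298 and 2435 bp downstream, in its intron. The Rab7 summits lay 630 and 631 bp downstream. Rab8 proteins carry cargo from the Golgi to the plasma membrane, and Rab8b had 21.1 and 24.2, against 10.7 and 8.88 for Rab8a. The widths of that pair were 5743 and 5692 bp for Rab8b and 575 and 672 bp for Rab8a.

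The remaining fully marked sets were Rab11, Rab1, Rab2 and the pair Rab31 and Rab22a. Rab11 proteins run the slow recycling route, and Rab11b had 21.2 and 24.3, against 16 and 14.6 for Rab11a. Rab1 proteins bring vesicles from the ER to the Golgi, and Rab1a had 17.7 and 23.3, against 12.6 and 17.3 for Rab1b. Rab2 proteins act between the Golgi and the ER, and Rab2b had 7.40 and 9.05, against 5.22 and 6.70 for Rab2a. A start of Tox4 lies in the Rab2b peak, so that peak is shared between 2 genes. Rab31, of transport from the trans-Golgi network to endosomes, had 10.7 and 12.2, against 4.47 and 5.46 for the endosomal Rab22a.

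By step, the ER and Golgi genes reached from high to low promoter folds. Rab1a and Rab30, a Golgi Rab with 15 and 17.6, were the highest in replicate 1, and Rab1a, Rab30 and Rab1b were the highest in replicate 2. Rab43, which acts in the ER and Golgi, had 8.45 and 11.1 in wide peaks of 4105 and 3052 bp. Rab18, of lipid droplets and the ER, was the lowest of the marked family with 3.96 and 4.36. Its peaks did not lie at the gene's 5′ end but near internal starts, the first of which is 31240 bp away, and the peaks of the 2 replicates did not overlap each other. The unmarked genes of this step were Rab6b, Rab33a and the Golgi Rab36.

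Of the early endosome genes not yet given, Rab21, which moves integrins, had 16.5 and 18.1, and Rab20, of phagosome maturation, had 13.2 and 14.1. Of the recycling genes, Rab14, which works between the trans-Golgi network, endosomes and phagosomes, had 12.1 and 15.6, and Rab35, of rapid recycling to the plasma membrane, had 7.23 and 7.88. Rab4a, Rab15, Rab17 and Rab25 were unmarked, of which Rab17 and Rab25 are best known from epithelial cells and Rab15 from neurons.

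In the late endosome, lysosome and autophagy group, Rab24, linked to autophagy, had 15.7 and 15.8, and the replicate 2 peak, though not that of replicate 1, holds a start of Prelid1. In both replicates the summit lay in an intron of Prelid1, so these folds cannot be given to Rab24 alone. Rab29, a partner of the kinase Lrrk2, had 9.81 and 8.77, and Rab12, which directs receptors to lysosomes, had 4.99 and 5.87. Rab9b, Rab34, which positions lysosomes, Rab39 and the neuronal Rab39b were unmarked in the replicate lists. Rab39, which takes part in phagosome and autophagosome traffic, had a peak of fold 3.25 in the list made from both libraries, 421 bp from its 5′ end. That list also held the Rab27a peak, with a fold of 2.67 and a rank percentile of 97.4, so 39 Rab genes had a promoter peak there.

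All 5 genes of constitutive exocytosis were marked. Rab19, the least studied of them, had 21.9 and 23.5 in peaks of 3289 and 3394 bp that covered the 5′ end, with summits 1486 and 1503 bp upstream. Rab10, of glucose transporter and other surface delivery, had 9.46 and 10.1. Rab13, of cell junctions and surface delivery, had 11 and 12.9 in a peak that holds a start of Rps27, a ribosomal protein gene.

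Of regulated secretion and lysosome-related organelles, Rab32, Rab3a and Rab26 were marked. Rab26, of secretory granules, had a fold of 9.83 in both replicates. Its peaks reached within 1 kb of an internal start 4264 bp from its 5′ end and did not lie at the 5′ end itself. Their summits lay 1506 and 1527 bp from the nearest annotated start of Rab26. Rab26 was not marked with a 500 bp window. Besides Rab3b, Rab3c, Rab3d, Rab38 and Rab27a, the unmarked genes were Rab27b of secretory granules, Rab37, known from mast cell secretion, and Rab44, a large Rab of immune cell granules. Of the cilium genes, Rab28 had 15.2 and 12.3, and Rab23, a negative regulator of Hedgehog signalling, was unmarked.

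**Figure D2:**
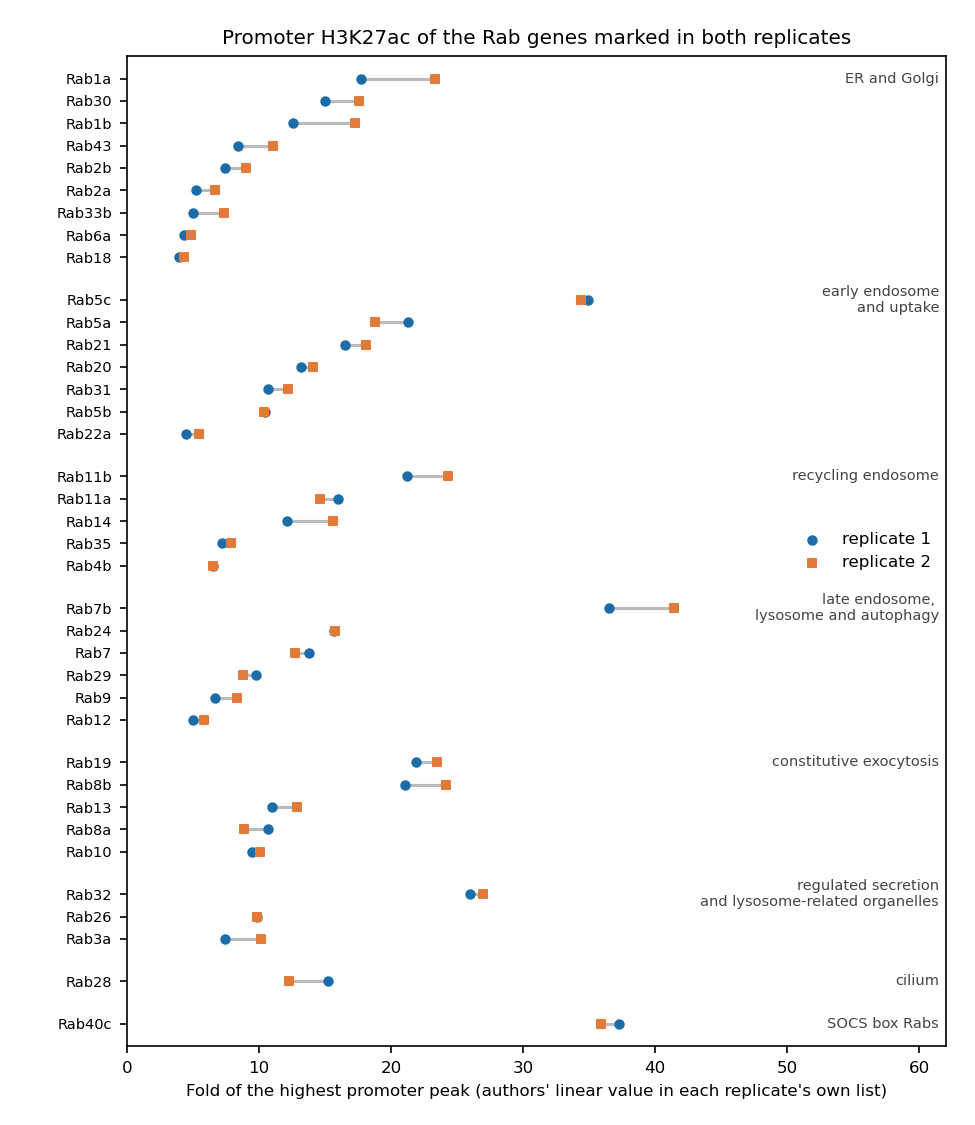
Fold of the highest promoter peak of each marked Rab gene (horizontal axis), by transport step, with replicate 1 as circles and replicate 2 as squares. It is the authors' value, read as linear, in each replicate's own list. The summit of such a peak can lie farther than 1 kb from a start, as at Rab7b. Rab7b, Rab40c and Rab5c lay above 34 in both replicates, and Rab18, Rab6a and Rab22a were the lowest in both.

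Ranked by fold in the list made from both libraries, with 0 as the highest, the promoter peaks of the marked Rab genes had a median percentile of 20.8, against 26.2 for all marked genes. By that measure 19 of the 37 stood above the median of all marked genes. In the upper 10% of the list were 8 of 37 Rab genes (21.6%), against 1798 of 8631 marked genes with a ranked peak (20.8%), so the Rab share was near the background. They were Rab7b at 0.703, Rab40c at 0.873, Rab5c at 1.37, Rab32 at 4.46, Rab11b at 6.77, Rab19 at 6.90, Rab8b at 7.25 and Rab5a at 9.66. At Rab7b and Rab19 the summit lay farther than 1 kb from any annotated start of the gene. At the other end, Rab18 stood at 71.1, Rab6a at 64.4, Rab22a at 58.7, Rab12 at 57.2 and Rab33b at 49.2. Between the replicates' own lists the percentile of a Rab gene differed by a median of 3.98 points, and by more than 10 points for Rab2a, Rab3a, Rab9, Rab12, Rab22a, Rab33b and Rab43. The largest gap was 22.5 points for Rab33b, so neighbours in the middle of this order are not separated by these data.

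Promoter peaks of the marked Rab genes had a median width of 1012 bp, against 1070 bp for all marked genes, and 17 of the 37 were wider than that. Mean widths over the replicates ran from 363 bp at Rab18 to 5718 bp at Rab8b. Rab8b (5718 ± 36.1 bp), Rab7b (5138 ± 588 bp) and Rab40c (4150 ± 1133 bp) exceeded 4 kb on average (SD, n = 2). Rab11a (414 ± 18.4 bp), Rab11b (486 ± 35.4 bp) and Rab28 (491 ± 82 bp) were under 500 bp (SD, n = 2). So was Rab18, with 314 and 412 bp, but its peaks are separate regions in the replicates, so they give no spread of 1 peak. Width and fold did not always go together: Rab11b was narrow yet in the upper 10% by fold, whereas Rab43 averaged 3578 bp at a percentile of 38.8. The wider peak of a gene was a median of 1.11 times the narrower across replicates, and Rab2b, with 883 and 1359 bp, was the single gene above 1.5 times.

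**Figure D3:**
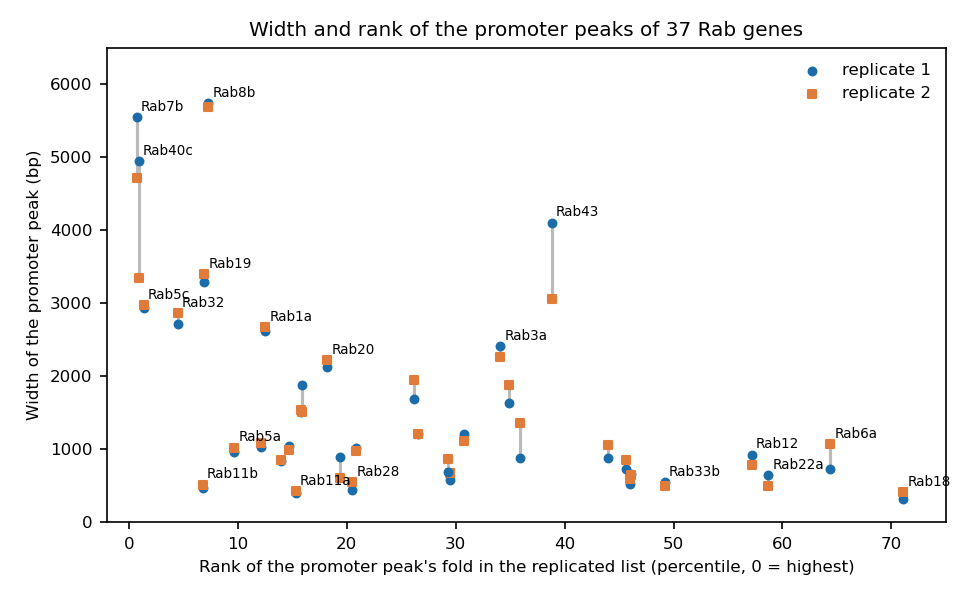
Width of the promoter peak in base pairs (vertical axis) for the 37 marked Rab genes. Circles are replicate 1 and squares replicate 2, joined by a line. The horizontal axis is the percentile of the highest promoter fold in the list made from both libraries (0 is the highest). The highest peak was taken in each list on its own. At Rab1a, and in replicate 1 at Rab18, the ranked peak is therefore not the one whose width is shown. Rab7b, Rab8b and Rab40c are wide and high in rank, Rab11b is narrow and high, and Rab43 is wide and in the middle.

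The steps overlapped in width and rank. Median promoter widths were 896 bp for the 9 marked genes of the ER and Golgi, 1205 bp for the 7 of early endosomes and 655 bp for the 5 of recycling endosomes. They were 990 bp for the 6 of late endosomes, lysosomes and autophagy, 995 bp for the 5 of constitutive exocytosis and 2336 bp for the 3 of regulated secretion. Median rank percentiles were 38.8 for the ER and Golgi, 18.2 for early endosomes, 15.9 for recycling endosomes, 27.2 for late endosomes, 20.8 for constitutive exocytosis and 30.8 for regulated secretion. The ranges were wide, from 12.5 to 71.1 for the ER and Golgi and from 1.37 to 58.7 for early endosomes. In the upper 10% of the list stood 0 of 9 genes of the ER and Golgi, 2 of 7 of early endosomes, 1 of 5 of recycling endosomes, 1 of 6 of late endosomes, 2 of 5 of constitutive exocytosis and 1 of 3 of regulated secretion, beside the 20.8% of all marked genes. With so few genes a step, these counts do not separate the steps.

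The position of the peak relative to the 5′ end also varied among Rab genes. A peak of both replicates covered the 5′ end of 37.9% of all marked genes. Among the 37 marked Rab genes it was covered in 11 in replicate 1 and 13 in replicate 2 (29.7% and 35.1%), where all marked genes had 40.1% and 46.7%. Peaks flanked an uncovered 5′ end on both sides in 14 and 9 Rab genes (37.8% and 24.3%), where all marked genes had 24.2% and 21.5%. They lay downstream alone in 8 and 9 Rab genes (21.6% and 24.3%), where all marked genes had 17.5% and 15.5%. They lay upstream alone in 2 and 4 Rab genes (5.41% and 10.8%), where all marked genes had 10.3% and 8.66%. Rab3a and Rab33b had an upstream peak alone in both replicates, and Rab1b, Rab2a, Rab6a, Rab7, Rab12, Rab20, Rab22a and Rab32 a downstream peak alone in both.

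Beyond the promoters, distal peaks were counted, meaning peaks of replicate 1 that overlapped a peak of replicate 2 and lay farther than 1 kb from any start of a protein-coding gene. Within 25 kb of the 5′ end, Rab genes had 50 such peaks, a mean of 0.847 per gene, against 0.495 over all protein-coding genes. At least 1 distal peak stood near 22 Rab genes, and 26.4% of all protein-coding genes had 1 or more. Split by promoter, 14 of 37 marked Rab genes (37.8%) had a distal peak, against 45.7% of all marked genes. Of the unmarked, 8 of 22 Rab genes (36.4%) had a distal peak, against 13.9% of all unmarked genes. The means were 0.919 and 0.913 for marked Rab genes and all marked genes, and 0.727 and 0.223 for unmarked Rab genes and all unmarked genes. The mean of unmarked Rab genes leans on Rab37, with 6 distal peaks, and Rab33a, with 3, whereas 14 of the 22 had none. Of the 50 peaks, 24 lay in an intron of the Rab gene itself, 19 between genes and 7 inside another gene alone, and for 35 the nearest protein-coding 5′ end was that of the Rab gene.

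Around marked Rab genes, several of the longest and highest distal peaks lay in introns of the Rab gene. Rab20 had a single distal peak, in its intron at chr8:11460370-11466478, of 6109 bp and with folds of 27.7 and 27.3, above the 13.2 and 14.1 of its promoter in each list. Rab7b had an intronic peak of 5156 bp with folds of 20.7 and 17.0, at chr1:131699711-131704866. Rab8b had intronic peaks with 25.5 and 24.1 and with 22.7 and 24.8, and Rab5c had 25.4 and 21.4 and 19.1 and 16.9. The Rab5c peaks lie nearer to the 5′ end of Hspb9 than to its own.

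By step, a distal peak stood near 3 of 12 genes of the ER and Golgi, 4 of 7 of early endosomes, 4 of 9 of recycling endosomes, 4 of 10 of late endosomes, 2 of 5 of constitutive exocytosis and 4 of 11 of regulated secretion, beside the 26.4% of all protein-coding genes. The share of the ER and Golgi was near that background. Genes with many distal peaks did not always have high ones. Rab7 had the most, 8, of which the highest in replicate 1 had folds of 11 and 9.89, and 3 of them lay nearer to the 5′ end of Rpn1. Rab37 had 6, Rab8b had 4, and Rab7b, Rab14 and Rab33a had 3 each. In 4 cases, at Rab7, Rab7b, Rab8b and Rab33a, 2 peaks of replicate 1 overlapped the same peak of replicate 2, so the counts depend on where a list splits a region. Rab21 had peaks between genes upstream of it, with folds of 20.6 and 23.5 for the one 15988 bp from its 5′ end. Rab14 had an intronic peak with 13.8 and 11.1.

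**Figure D4:**
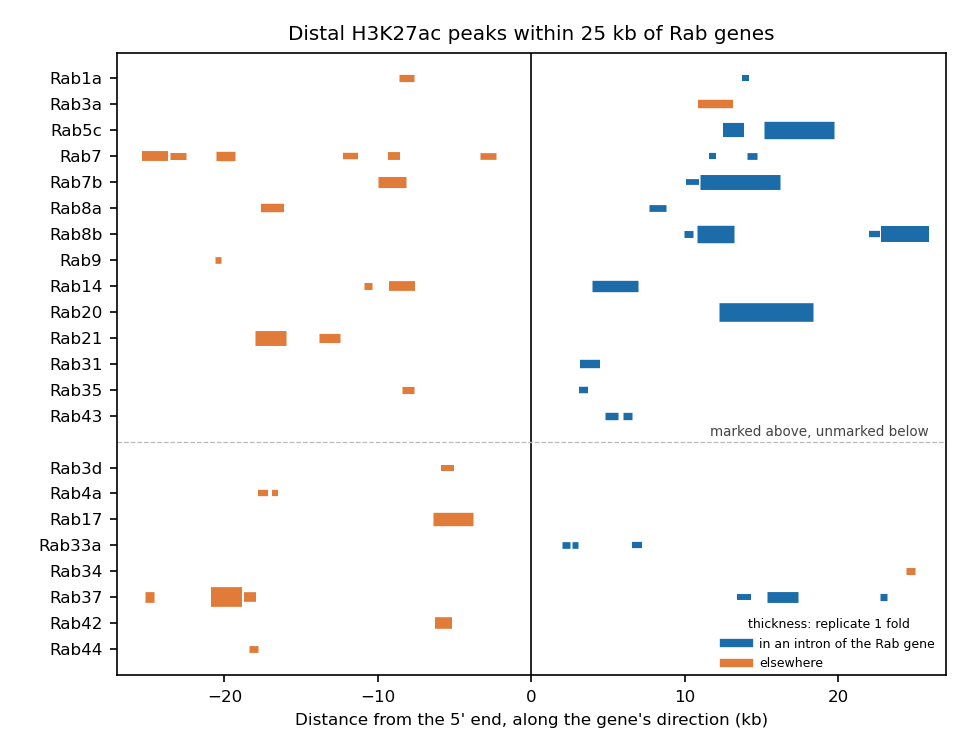
Distal peaks within 25 kb of the 5′ end of each Rab gene that has 1 (horizontal axis, distance in kb along the gene's direction, negative upstream). Bars span the replicate 1 peak and thicken with its fold, blue in an intron of that Rab gene and orange elsewhere, and the 14 marked genes stand above the 8 unmarked. Intronic bars prevail at Rab5c, Rab7b, Rab8b and Rab20, and upstream bars at Rab7.

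The unmarked Rab genes with distal peaks were Rab3d, Rab4a, Rab17, Rab33a, Rab34, Rab37, Rab42 and Rab44. Some of these peaks were as high as the promoters of marked genes. Rab17 had a peak of 2637 bp between genes, 3781 bp upstream of its 5′ end, with folds of 17.7 and 18.6, and Rab42 had a peak of 14.3 and 11.9 at 5147 bp upstream. For both genes theirs was the nearest protein-coding 5′ end. Around Rab37 the highest peak, with 29.9 and 30.5, lay nearest to Cd300e, a myeloid receptor gene, and a peak in the Rab37 intron had 12.9 and 12.9. The single peaks of Rab3d (3.44 and 4.19), Rab34 (5.33 and 4.52) and Rab44 (5.07 and 3.18) and both peaks of Rab4a lay inside other genes. The 14 unmarked genes with no distal peak were Rab3b, Rab3c, Rab6b, Rab9b, Rab15, Rab23, Rab25, Rab27a, Rab27b, Rab36, Rab38, Rab39, Rab39b and Rab40b.

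A property of the DNA that the membership rule did not use is CpG content, given here as the ratio of observed to expected CpG in the 1 kb around the 5′ end. CpG-rich promoters are common at broadly used genes. Marked Rab genes had a median ratio of 0.745, from 0.174 to 1.038, and unmarked Rab genes 0.525, from 0.239 to 0.989. Over all protein-coding genes the medians were 0.734 for marked and 0.326 for unmarked. Of Rab genes with a ratio of at least 0.6, 29 of 38 were marked (76.3%), against 61.6% of all protein-coding genes with such a ratio. Below 0.6 it was 8 of 21 Rab genes (38.1%), against 20.4% of all protein-coding genes.

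Some members went against this split on either side. Rab7b (0.227), Rab19 (0.329) and Rab5c (0.560) combined a ratio below 0.6 with a promoter peak in the upper 10% by fold. The summits lay 2298 and 2435 bp downstream of the 5′ end at Rab7b and 1486 and 1503 bp upstream at Rab19. For these genes the ratio therefore does not describe the DNA at the summit. The Rab5c summits lay 313 and 308 bp downstream. Rab5b, Rab9, Rab18, Rab26 and Rab30 were the other marked genes below 0.6, of which Rab18 and Rab26 were marked near internal starts alone. CpG-rich but unmarked were Rab23 (0.989), Rab39 (0.761), Rab6b (0.756), Rab39b (0.752), Rab15 (0.731), Rab34 (0.691), Rab40b (0.685), Rab4a (0.628) and Rab3d (0.605). Of the 22 unmarked Rab genes, 4 (Rab6b, Rab23, Rab39 and Rab39b) exceeded the marked median.

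**Figure D5:**
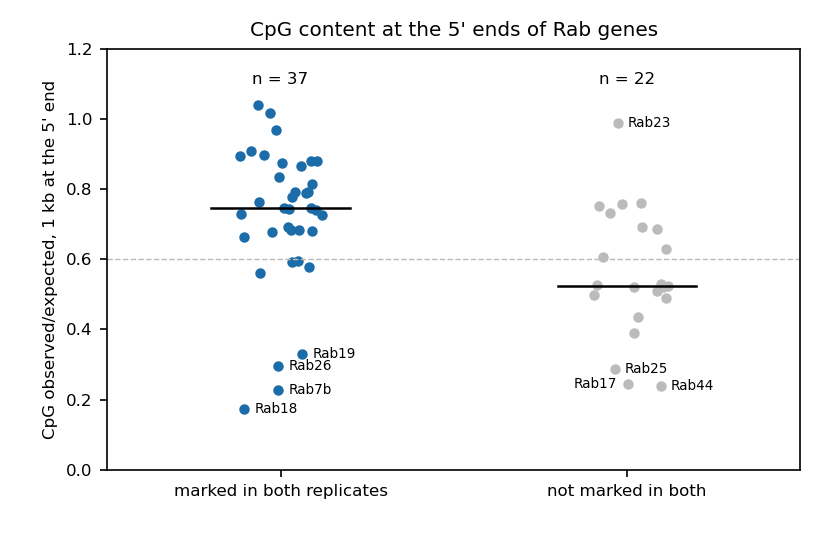
Ratio of observed to expected CpG in 1 kb at the 5′ end (vertical axis) of the 37 marked and 22 unmarked Rab genes, a point for each gene, with the median as a bar and 0.6 as a dashed line. The marked median is 0.745 and the unmarked 0.525, with Rab7b, Rab18, Rab19 and Rab26 low among the marked and Rab23 high among the unmarked.

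Short binding words were counted on both strands in the RefSeq promoters of 300 bases, 250 before and 50 after the start. Of the 59 Rab genes, 48 matched the table, with 60 promoters, and the share among all 32851 promoters stands beside each count. The word CCAAT (NF-Y) was in 43.3% of Rab promoters and 37.4% of all, and the E-box CACGTG in 10.0% and 7.15%. AAGATGGC (YY1) was in 6.67% and 2.75%, which is 4 Rab promoters: Rab7, Rab13, Rab22a and Rab28. GAGGAAGT, a PU.1 word, was in 3.33% and 3.20%, at Rab2b and Rab32. TGANTCA (AP-1) was in 5% and 7.81%, at Rab15, Rab34 and Rab39b. GAAANNGAA (interferon response) was in 5% and 8.56%, TATAAA in 6.67% and 13.6%, GCGCATGC (NRF1) in 3.33% and 2.71%, and CCGGAAGT (ETS) in 3.33% and 3.89%. Of the 48 matched Rab genes, 32 were marked. The 3 genes with the AP-1 word were unmarked, and all genes with the YY1, PU.1 or ETS word were marked. The other words stood at both kinds of gene. Marked and unmarked genes were 20 and 6 for NF-Y, 4 and 2 for the E-box and 2 and 1 for interferon response. They were 1 and 1 for NRF1 and 1 and 3 for TATAAA. With 32 of 48 matched genes marked, sets this small can be all marked without a link to the word. A match describes letters in this window and is not a binding site, and these counts rest on few promoters. Rab2a, Rab4a, Rab7b, Rab18, Rab26, Rab27b, Rab30, Rab36, Rab37, Rab38 and Rab44 had no entry.

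Rab proteins work in a cycle with other proteins, and 75 of 109 such genes were marked (68.8%), beside the 39.4% of all protein-coding genes. Of the 8 genes that prenylate Rabs and move them on and off membranes, 7 were marked, with Gdi2, which extracts GDP-bound Rabs, at 18.2 and 21.6 and the prenyltransferase subunit Rabggtb at 12 and 12.2. Chml, an escort protein, was unmarked. Of 32 genes of nucleotide exchange, which switch Rabs on, 26 were marked, with Dennd4b at 37.7 and 31.5 and Gapvd1, an exchange factor of Rab5, at 24.1 and 27.7. Dennd2a and Dennd3 were unmarked, and Mon1a, part of the exchange factor of Rab7, had a peak in replicate 1 alone, with 4.13.

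In the list for GTPase activation, the step that switches Rabs off, 22 of 29 genes were marked. Among them were Tbc1d17 at 38.9 and 38.0 and Tbc1d14 at 30.8 and 28.7. Whether each listed gene has this activity was not tested. A start of Akt1s1 lies within 1 kb of that of Tbc1d17. Sgsm1 and Sgsm3 were unmarked, and Tbc1d22b had a peak in replicate 2 alone, with 4.86. Of 40 effectors 20 were marked, with the motor Myo5a at 26.3 and 31.3 and the lysosome motor adaptor Fyco1, a partner of Rab7, at 26.5 and 27.7. Ankrd27 and Bicd1 were unmarked, and Exoc6 had a peak in replicate 2 alone, with 4.86.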

How the data were processed

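The authors deposited 4 peak lists on mm10: a list for each replicate, called per sample from its own alignments, and replicated and pooled pseudoreplicated lists called on both replicates together, as the deposited text files state. Folds were read as linear ratios and q-values as −log10 values, both the authors' own. Aligner, caller and settings are not given in the sources used here. Folds have no recorded scaling between lists, so they rank peaks within a list, and pooled lists have no SD or n. From these lists, Python 3.11.15 scripts with GENCODE M21 (GRCm38.p6) took 93513 starts of protein-coding transcripts, the peak with the highest fold that overlaps a window by at least 1 bp, its width (mean over 2 replicates) and its percentile rank. Positions are 1-based. Code was tested on simulated peaks.

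The members and gene lists were chosen with earlier results of these data known. All Rab genes may be named. Of the other Rab cycle genes, the 2 marked with the highest fold and the first 2 unmarked by alphabet were named from each list, and Mon1a, Tbc1d22b and Exoc6 after their values were seen. Promoters are shown for 3 paralogue sets with a copy marked in both replicates and another in neither, by rank of the marked copy; the pair Rab32 and Rab38 lacks a Rab38 entry. Alternatives changed the window, starts, threshold, list, overlap, distance, replicates and CpG window. No tests were run. Counts near a gene do not assign a peak to it.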

Additional observations from a re-analysis of the deposited data

How the results depend on the processing

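Of 59 Rab genes, 34 to 39 were marked under each alternative that kept all members. The count was 34 with a 500 bp window (without Rab2a, Rab6a and Rab26), 35 at 5′ ends alone (without Rab18 and Rab26), 38 with a 2.5 kb window (with Rab33a) and 39 in either list made from both libraries, and 33 of 55 when genes sharing a start were left out. Over all protein-coding genes the share then ran from 33.6% to 43.9%. The share for regulated secretion ran from 18.2% to 36.4% and for the ER and Golgi from 58.3% to 83.3%. Mean distal peaks per Rab gene (0.847) were 0.322 within 10 kb, 2.88 within 100 kb, 0.593 for the nearest gene alone and 0.746 with 50% overlap. Over all genes these settings gave 0.202, 1.98, 0.326 and 0.402. Without replicate 1 the mean was 0.881 per Rab gene and 0.544 over all genes. Without replicate 2 it was 0.932 per Rab gene and 0.56 over all genes. The median rank percentile (20.8) was 30.8 for the peak nearest the 5′ end and 25.5 to 29.2 in single replicates. The median width (1012 bp) was 942 bp for that peak, 1185 bp in the replicated list and 1015 to 1063 bp without a replicate. No medians over all marked genes are given for these rank and width settings. The values therefore cannot be set beside the 26.2 and 1070 bp of all marked genes. The cause of these shifts was not tested. The difference of median CpG ratio, marked minus unmarked (0.219), was 0.237 with 250 bp on either side and 0.244 at each gene's start with the highest ratio, an alternative chosen after seeing the data. No paired analysis was possible because the series has 1 group. The depth behind the lists is unknown, so low peaks such as those of Rab18 and Rab27a lie near a limit that could not be set.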
